A study of Homo sapiens with 2 samples.

Results

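The clade B serpins are a branch of the serpin family of protease inhibitors that mostly stay inside the cell or leave it without a classical signal peptide. An inhibitory serpin offers its reactive centre loop as bait, is cleaved by the protease, and then traps it by a large change of shape. Several clade B serpins are abundant in stratified squamous epithelium and in the carcinomas that arise from it, where some have been used as tumour markers. The 10 genes described here are SERPINB1 to SERPINB9 and SERPINB13. They were found through 13 of the 24740 array probes whose platform annotation names exactly 1 gene, and so are 10 of the 18336 genes measured by such probes. SERPINB2, SERPINB8 and SERPINB9 each had a pair of probes, and the other 7 genes had 1 probe each.

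RNA came from the established cell line SAS, which derives from a human squamous cell carcinoma of the tongue. One sample, named neo in the labels, was the control (neo cells below), and the other carried a short hairpin RNA plasmid against ATMIN (shATMIN), which encodes a zinc finger protein that interacts with the ATM kinase. The labels give puromycin selection of resistant clones in the same words for both, while the sources used here give neither the number of clones nor what the neo cells carried. The stated aim was to see how a knock-down of ATMIN bears on the progression of cancer. Each group had 1 sample, so no difference below can be set against a spread between replicates, and no test was made.

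Each probe had 1 deposited intensity per sample, in arbitrary units on a linear scale, from 2 arrays as the labels list them. The median over all 31741 probes was 109 in neo cells against 106 in shATMIN cells, with upper quartiles of 629 and 535. The brighter ATMIN probe read 105 in neo cells and 61.5 in shATMIN cells, a log2 difference of -0.76. The other read 51.5 and 26.5, a difference of -0.93. Both gave low signal: the second was near background by the rule below, whose limit is 58.9, and the first came close to it in shATMIN cells. Of 12 markers of squamous epithelium 10 were bright in these cells. The brightest were EPCAM, an epithelial adhesion molecule, at 30888 and 23080 and KRT5, a basal keratin, at 13322 and 16170. Between the samples this list went both ways, with log2 differences of 1.00 for KRT6A and 0.99 for KRT14. TP63 stood at -1.19 on its brighter probe and -0.06 on the other. Of 11 measured markers of terminal keratinocyte differentiation 1, KRT10, was bright. Of 11 measured leukocyte markers 1, CD14, was bright, their summed intensity was 3609 and 3258, and PTPRC, the leukocyte common antigen, read 13.5 and 14.0. Of 12 fibroblast markers 1, FAP, was bright, with a summed intensity of 1813 and 1727. None of 10 endothelial markers was bright, and their sum was 1185 and 1043. SERPINB1, SERPINB2 and SERPINB9 are also expressed by leukocytes, but the RNA here came from a cell line and not from tissue.

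A probe was called bright when its mean log2(intensity + 1) over both samples reached the 75th percentile of all probes, an intensity of 578. It was called near background below the 40th percentile, an intensity of 58.9, and intermediate between these levels. By that rule 6 of the 10 serpin genes were bright, 3 were intermediate and 1 was near background. Of all measured genes 32.4% were bright by their brightest probe. The intensity of a probe depends on its own sequence as well as on the transcript, so the classes place each probe among all probes and do not rank the genes by transcript number.

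**Figure D1:**
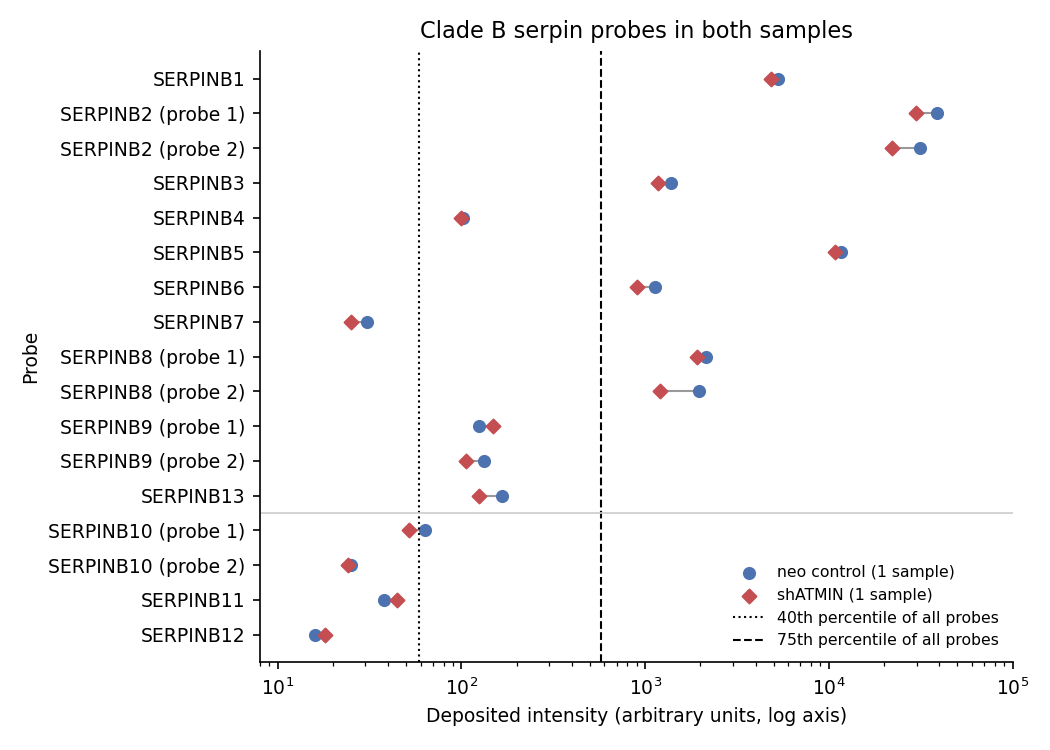
Deposited intensity (log axis, arbitrary units) of each clade B serpin probe in the neo control (circles) and the shATMIN sample (diamonds), with the 40th and 75th percentiles of all probes as vertical lines. The members stand above the horizontal line and SERPINB10, SERPINB11 and SERPINB12 below it. The SERPINB2 probes lie farthest right, between 22086 and 38987, and SERPINB7 lies left of both lines.

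The brightest member was SERPINB2, which encodes plasminogen activator inhibitor 2, an inhibitor of urokinase and tissue plasminogen activator. Its first probe read 38987 in neo cells and 29707 in shATMIN cells, above 99.5% and 99.4% of all probes. Its second probe read 31475 and 22086. Both probes were lower in shATMIN cells, by log2 differences of -0.39 and -0.51, or 1.31-fold and 1.43-fold. The highest value in either sample was 65511, so neither probe was at the top of the scale. The 250 bases before the RefSeq start of SERPINB2 (GRCh38.p14, chr18:63887455-63887704, plus strand) are shown because its probes gave the highest signal among the members and both were lower in shATMIN cells as deposited and in the scalings described below. Capitals mark a match to TGANTCA, a loose form of the AP-1 site, whose consensus has C or G at the middle base, where this match has A. Its first letter lies 102 bases before the start. Capitals also mark a match to TATAAA, the TATA box, 30 bases before it.
SERPINB2: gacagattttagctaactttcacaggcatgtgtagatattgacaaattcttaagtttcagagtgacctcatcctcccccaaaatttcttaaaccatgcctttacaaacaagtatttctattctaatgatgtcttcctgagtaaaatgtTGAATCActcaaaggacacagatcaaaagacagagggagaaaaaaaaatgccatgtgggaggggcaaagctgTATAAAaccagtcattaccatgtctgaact

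SERPINB5 encodes maspin, a serpin that does not inhibit proteases and is studied as a tumour suppressor. It read 11700 in neo cells and 10785 in shATMIN cells, above 97.1% and 97.3% of all probes. The log2 difference was -0.12, or 1.08-fold, which is small beside the SD of 0.34 between probes of the same gene on this array. The sequence before its start (GRCh38.p14, chr18:63476708-63476957, plus strand) is shown beside that of SERPINB2 because the same letters, TGAATCA, occur in both, here 146 bases before the start. It holds no TATAAA on either strand, has 13 CpG dinucleotides where that of SERPINB2 has 0, and is 60% G or C against 37.2%.
SERPINB5: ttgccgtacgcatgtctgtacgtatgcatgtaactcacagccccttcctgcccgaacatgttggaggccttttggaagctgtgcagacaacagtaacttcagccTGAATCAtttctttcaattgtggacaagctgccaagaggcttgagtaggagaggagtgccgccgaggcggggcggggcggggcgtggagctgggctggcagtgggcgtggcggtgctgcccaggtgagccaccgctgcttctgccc

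SERPINB3 and SERPINB4 encode the squamous cell carcinoma antigens 1 and 2. The first inhibits papain-like cysteine proteases such as cathepsins L, S and K, and the second inhibits chymotrypsin-like serine proteases such as cathepsin G. The genes lie next to each other on chromosome 18 and are close copies, so their transcripts can share probe signal, and the probe sequences were not used here. SERPINB3 was bright, at 1380 in neo cells and 1177 in shATMIN cells. SERPINB4 was intermediate, at 102 and 99.0, above 48.9% and 48.7% of all probes. The log2 differences were -0.23 for SERPINB3 and -0.05 for SERPINB4, both smaller than the spread between probes of a gene. The 250 bases before the start are shown for both (GRCh38.p14, minus strand, chr18:63661894-63662143 for SERPINB3 and chr18:63644257-63644506 for SERPINB4), because these windows are nearly alike although 1 probe fell in the bright class and the other did not. They differ at 3 of 250 bases, an identity of 98.8%. Counted from 1 at the 5′ end, with the SERPINB3 base first, the differences are G126A, G201A and C228T. Neither window holds TGANTCA or TATAAA on either strand, so no letters are in capitals.
SERPINB3: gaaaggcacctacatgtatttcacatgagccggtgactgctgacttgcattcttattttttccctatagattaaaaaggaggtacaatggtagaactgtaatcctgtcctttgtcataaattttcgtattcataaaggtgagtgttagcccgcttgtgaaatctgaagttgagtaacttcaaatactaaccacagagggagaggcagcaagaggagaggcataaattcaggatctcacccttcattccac
SERPINB4: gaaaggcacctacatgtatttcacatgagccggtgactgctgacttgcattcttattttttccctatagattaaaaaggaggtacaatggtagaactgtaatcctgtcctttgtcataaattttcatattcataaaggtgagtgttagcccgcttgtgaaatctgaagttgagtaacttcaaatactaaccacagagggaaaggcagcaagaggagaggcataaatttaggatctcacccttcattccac

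SERPINB1, SERPINB6 and SERPINB8 were also bright. SERPINB1, an inhibitor of the neutrophil proteases elastase, cathepsin G and proteinase 3, read 5301 in neo cells and 4848 in shATMIN cells, a log2 difference of -0.13. SERPINB6, a broad inhibitor that acts on cathepsin G and trypsin-like proteases, read 1125 and 902, a difference of -0.32. SERPINB8, an inhibitor of the proprotein convertase furin, had probes that disagreed in size. The brighter one read 2145 and 1912, a difference of -0.17, and the other read 1975 and 1202, a difference of -0.72 or 1.64-fold. Both SERPINB8 probes were thus lower in shATMIN cells, with a gap of 0.55 between their differences. The SD of 0.34 is that of single probes around the mean of their gene, and a gap between 2 probes spreads more widely than that. The second SERPINB8 probe gave the largest difference of the 13 probes.

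The remaining members gave low signal. SERPINB13, also called headpin, an inhibitor of cathepsins L and K found in stratified epithelium, read 167 in neo cells and 125 in shATMIN cells, a log2 difference of -0.42 or 1.33-fold. SERPINB9, the intracellular inhibitor of granzyme B, gave opposite signs on its probes. The first read 125 and 149, a difference of 0.26, and the second read 133 and 106, a difference of -0.33. No direction can be read for SERPINB9 from these values. SERPINB7, also called megsin, which is expressed in the upper epidermis, read 30.5 and 25.0, above 28.7% and 24.4% of all probes. It was the only member near background, and its difference of -0.28 was not compared further. The clade B genes outside the set, SERPINB10, SERPINB11 and SERPINB12, were near background on all 4 of their probes, with intensities from 16 to 63.0.

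For intensities under 1000 the pair of readings that each deposited value averages could be recovered, as the method below sets out, which gives a technical spread within each sample. The sources used here do not say whether these are the 2 listed arrays. For SERPINB13 the readings were 164 and 170 in neo cells and 124 and 126 in shATMIN cells, so the pairs did not overlap. For SERPINB4 they were 101 and 104 against 87.8 and 110, and the shATMIN pair enclosed the neo pair. The first SERPINB9 probe had 118 and 131 against 132 and 166, and the second had 131 and 134 against 101 and 110. The pairs of the first SERPINB9 probe nearly met, and its shATMIN readings differed by 0.33 on the log2 scale, more than the difference of 0.26 between the samples. The SERPINB7 readings were 29.1 and 31.9 against 24.0 and 26. The SD of a single reading, estimated from the log2 gaps within pairs, was 0.18 in each sample. It was taken over 7524 compared genes of neo cells and 7943 of the shATMIN sample. The members brighter than this limit have no such pair in 1 or both samples. The SD of a reading leaves out the spread between cultures and between clones.

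**Figure D2:**
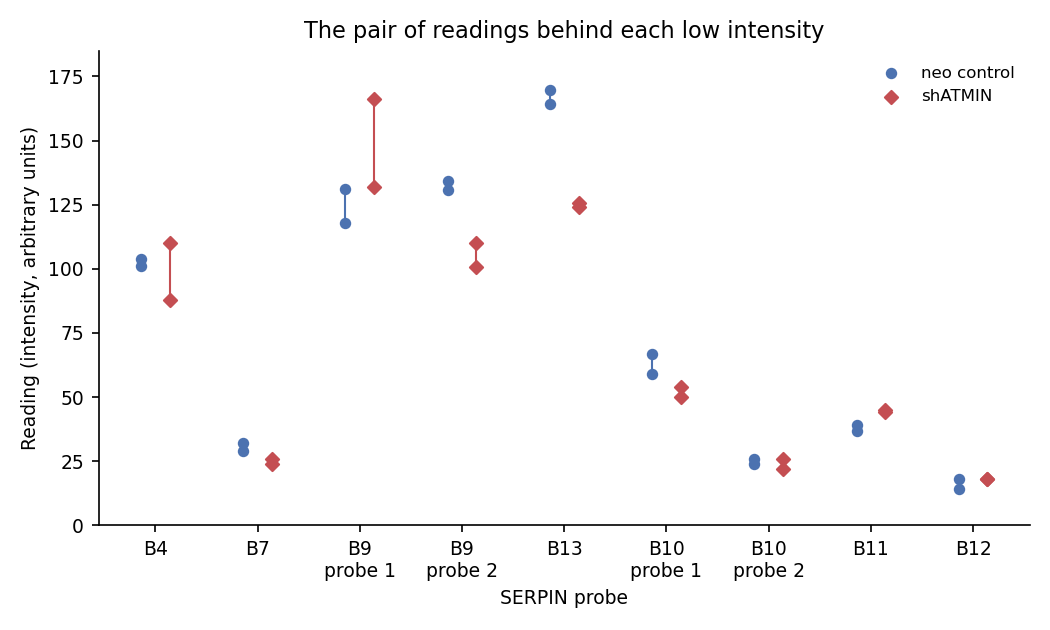
The 2 readings (intensity, arbitrary units) behind each deposited value for the clade B serpin probes under 1000 in both samples, with neo control as circles and shATMIN as diamonds, joined by a line within a sample. The SERPINB13 pairs lie apart, near 167 and 125, the SERPINB4 pairs overlap, and the SERPINB9 probes move in opposite directions.

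The question of the comparison was whether these serpins differed between shATMIN and neo control cells. Genes were compared where the brightest probe reached the 40th percentile, which 9 of the 10 members did, as did 12421 genes, or 67.7% of all. None of the 9 was 2-fold lower or 2-fold higher in shATMIN cells, where 1.34% of all compared genes were 2-fold lower and 0.459% 2-fold higher. At 1.5-fold the count of members by their brightest probes was also 0, against a background of 12.2% lower and 1.9% higher. The second SERPINB8 probe, at -0.72 or 1.64-fold lower, was past this looser rule but is not counted, since its gene has a brighter probe. By sign alone 8 of the 9 were lower, and SERPINB9 was higher on its brighter probe. However, 70.7% of all compared genes were also lower, and the sign count is read against that share. The median difference was -0.17 over the 9 members and -0.16 over all compared genes. On their brightest probes the members ran from -0.42 for SERPINB13 to 0.26 for SERPINB9, well inside the differences of the array. Of the compared genes 27.4% differed by more than SERPINB13 and 29.6% by more than SERPINB2, in either direction and as deposited.

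**Figure D3:**
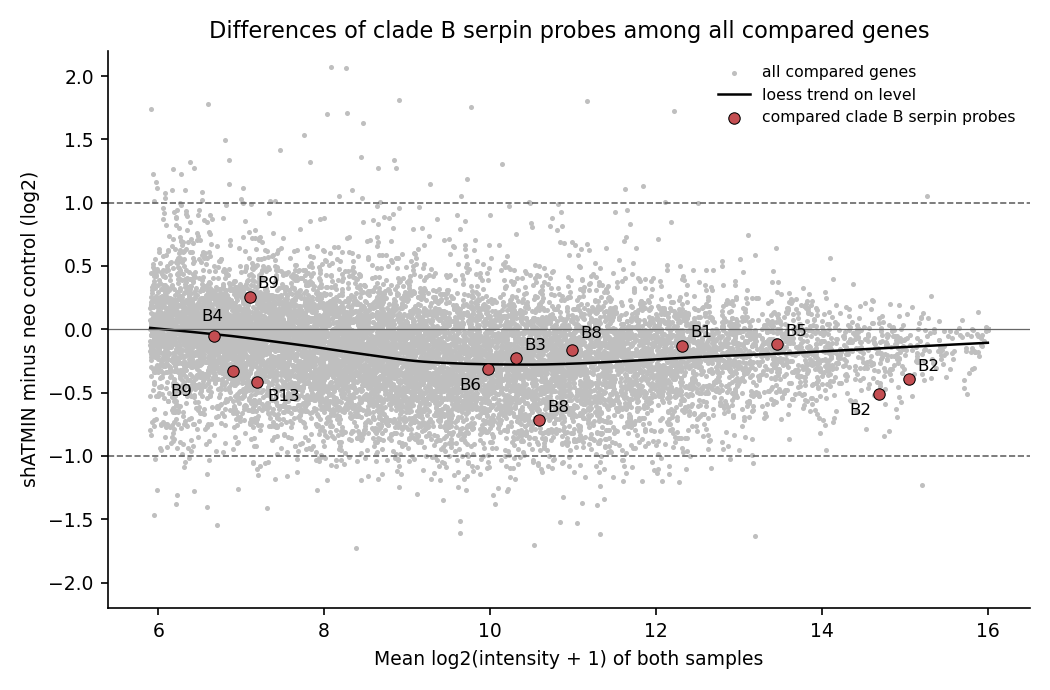
Difference between shATMIN and neo control (log2) against mean log2(intensity + 1), for all 12421 compared genes by their brightest probe (grey) and the 12 compared clade B serpin probes (red, named without the prefix SERPIN). The black line is a loess trend, the dashed lines mark 2-fold, and 7 genes lie outside the axis. All serpin probes lie between the dashed lines, from -0.72 to 0.26.

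The direction of the small differences depended on how the samples were scaled. After removal of the trend of the difference on level, 4 of the 9 members were lower and 5 higher, where 48.5% of all compared genes were lower, and the median was 0.05. With both samples scaled to their 75th percentiles, which adds 0.23 to every log2 difference, 3 were lower and 6 higher, where 41.2% of genes were lower. SERPINB2, SERPINB6 and SERPINB13 were lower as deposited and in both of these scalings. For SERPINB2 the differences were -0.39, -0.25 and -0.16, and for SERPINB13 they were -0.42, -0.34 and -0.18. For SERPINB6 they shrank to -0.04 and -0.08. As deposited 23.4% of compared genes had a lower difference than SERPINB13 and 25.2% a lower one than SERPINB2. With the trend removed these shares were 14.8% and 20.9%. SERPINB1, SERPINB3, SERPINB5 and SERPINB8 turned from lower to higher on their brightest probes in both, to at most 0.12. SERPINB4 stood at -0.01 with the trend removed and turned to 0.18 after scaling. The second SERPINB8 probe stayed lower, at -0.44 and -0.48, and the second SERPINB2 probe at -0.36 and -0.28.

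**Figure D4:**
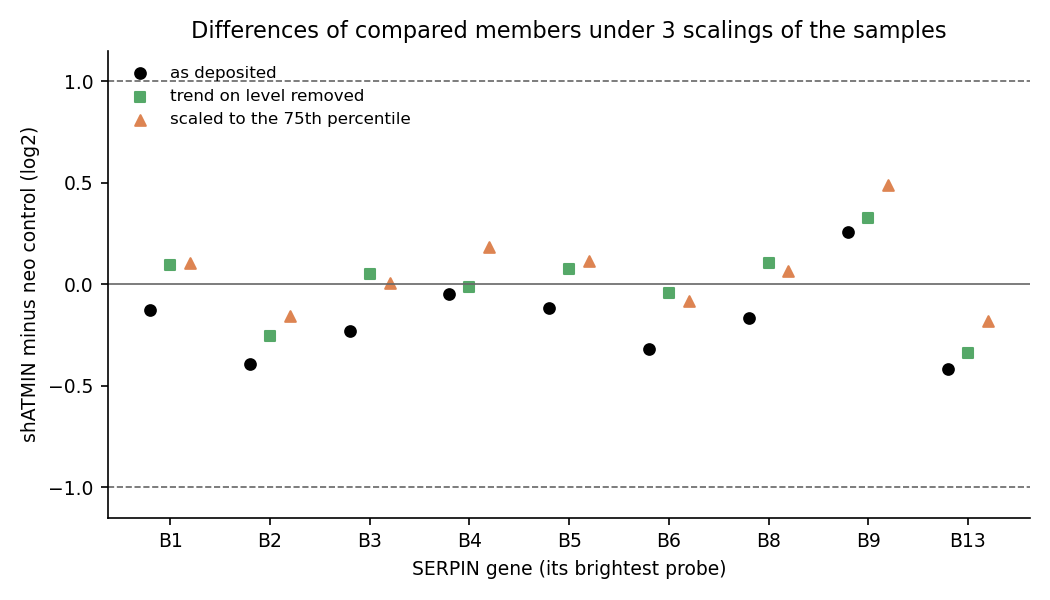
Difference between shATMIN and neo control (log2) for the brightest probe of each of the 9 compared members, as deposited (circles), with the trend on level removed (squares) and with both samples scaled to their 75th percentile (triangles). Dashed lines mark 2-fold. SERPINB2, SERPINB6 and SERPINB13 lie below 0 in all 3 forms, SERPINB9 lies above 0 in all 3, and no value reaches 2-fold.

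The members lie in a pair of chromosomal clusters. Per the RefSeq gene table, 7 of them sit on chromosome 18 in the order SERPINB5, SERPINB13, SERPINB4, SERPINB3, SERPINB7, SERPINB2 and SERPINB8, with SERPINB12, SERPINB11 and SERPINB10 between them, and SERPINB1, SERPINB9 and SERPINB6 sit on chromosome 6. On chromosome 18 the bright SERPINB2 has SERPINB7 and SERPINB10, both near background, as its neighbours, and the bright SERPINB5 is followed by SERPINB12, also near background. All 6 compared members of chromosome 18 were lower as deposited, with a median of -0.20, and 2 of the 3 on chromosome 6 were lower, with a median of -0.13. Over all compared genes of each chromosome 65.3% were lower on chromosome 18 and 70.3% on chromosome 6, with medians of -0.13 and -0.14. With the trend on level removed the medians of the members turned to 0.02 on chromosome 18 and 0.10 on chromosome 6. Those of all compared genes of each chromosome were then 0.06 and 0.01. The flanking genes VPS4B and KDSR, beside SERPINB5, stood at -0.46 and -0.13, and CDH19, beyond SERPINB8, at 0.16. Beside the chromosome 6 cluster WRNIP1 and NQO2 stood at -0.72 and -0.15 and RIPK1 and TUBB2A at 0.32 and 0.69. The compared neighbours not named so far were all lower, TMX3 on chromosome 18 at -0.72 and GMDS and BPHL on chromosome 6 at -0.66 and -0.27. In all, 3 of 4 compared neighbours on chromosome 18 and 4 of 6 on chromosome 6 were lower, with medians of -0.30 and -0.21. With the trend on level removed both medians were -0.05.

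The base composition of the windows of 250 bases before the start varied among the members and overlapped between the clusters. All 10 members matched RefSeq promoters, 8 of them with 1 start, SERPINB6 with 4 and SERPINB7 with 3. On chromosome 6 the windows of SERPINB1 and SERPINB9 were 63.6% and 74.4% G or C, with 21 and 27 CpG dinucleotides, and those of SERPINB6 ran from 47.6% with 3 CpG to 76.8% with 34. On chromosome 18 SERPINB13 and SERPINB8 had 44.4% and 49.2%, with 4 and 7 CpG, SERPINB3 and SERPINB4 had 40.8% and 39.6%, and the windows of SERPINB7 ran from 26% to 52%, with at most 1 CpG. SERPINB5 on chromosome 18, at 60% and 13 CpG, lay a little above the median of all promoters and below SERPINB1. The median over 35116 promoters was 58.0% and 11 CpG. A match to TGANTCA on either strand was present in at least 1 window of 5 members, SERPINB2, SERPINB5, SERPINB7, SERPINB8 and SERPINB13, all on chromosome 18, and in 6.57% of all promoter windows. TATAAA on either strand was present for SERPINB2, SERPINB7, SERPINB8 and SERPINB9, and in 10.7% of all windows. The members are counted as genes, some with several windows, while both shares count single windows and are not matched for base composition. In SERPINB8 the matches on opposite strands overlap. Members with a TGANTCA match were found in the bright, the intermediate and the near background class.

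Proteases that clade B serpins are known to inhibit, and other inhibitors of epithelium, were measured on the same arrays. Of 23 target proteases 15 were compared, 8 lower and 7 higher, with a median of -0.004, none 2-fold either way, where 70.7% of all compared genes were lower. With the trend on level removed 4 were lower and 11 higher, and after scaling to the 75th percentile 5 and 10. The shares of all compared genes that were lower in these forms were 48.5% and 41.2%. As deposited the largest difference was that of ST14, the membrane protease matriptase, at 343 in neo cells and 192 in shATMIN cells (-0.83). Next came PLAT, tissue plasminogen activator and a target of SERPINB2, at 1468 and 913 (-0.68). CTSV, a cathepsin L-like protease, read 721 and 1111 (0.62), and FURIN, the target of SERPINB8, read 728 and 494 (-0.56). CASP4, an inflammatory caspase, stood at -0.51 and CTSB, cathepsin B, at 0.47. This order depended on the scaling. With the trend on level removed CTSV at 0.90 and CTSB at 0.72 were larger in size than ST14 at -0.68. PLAT then stood at -0.41, CASP4 at -0.31 and FURIN at -0.30. After scaling to the 75th percentile CTSV stood at 0.86, CTSB at 0.71 and ST14 at -0.60. Among leukocyte proteases of the list, ELANE, neutrophil elastase, read 37.0 and 46.0, CTSG, cathepsin G, 5.0 and 2.5, and GZMB, granzyme B, 4.0 and 3.5, all near background, while GZMM, granzyme M, was compared, at 105 and 123. PLAU, urokinase, read 239 and 247, and CTSL, cathepsin L, 9413 and 9388.

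Of 15 other epithelial inhibitors and related genes 11 were compared, 6 lower and 5 higher, with a median of -0.21, and 5 were lower after scaling to the 75th percentile. For this list and the next, 70.7% of all compared genes were lower as deposited and 41.2% after that scaling. PI3, the elastase inhibitor elafin, was 2-fold higher, at 717 in neo cells and 1774 in shATMIN cells (1.30). Of all compared genes 0.459% were 2-fold higher and 1.34% 2-fold lower as deposited. SPINT1, an inhibitor of matriptase, stood at -0.84, and CST3, cystatin C, at -0.69. SPINT2, a relative of SPINT1, stood at -0.52 and WFDC2, a secreted whey acidic protein family member, at 0.52. PLAUR, the urokinase receptor, stood at -0.49. Of 20 measured serpins of other clades 9 were compared, 5 lower and 4 higher, with a median of -0.08, and 2 were lower after scaling to the 75th percentile. SERPINA1, alpha-1 antitrypsin, read 341 and 166, a difference of -1.03 that was past 2-fold only as deposited. It was -0.89 with the trend on level removed and -0.80 after scaling to the 75th percentile, and a second SERPINA1 probe, near background, went the other way, from 16.5 to 48.6. SERPINE2, protease nexin 1, stood at 0.49, SERPINF1, pigment epithelium-derived factor, at -0.27, and SERPINH1, a collagen chaperone, at 0.17 on 1 probe and -0.30 on another. SERPING1, the C1 inhibitor, stood at -0.16 and SERPINC1, antithrombin, at -0.14. PI3 stood at 1.58 and 1.54 in those scalings and had 1 probe. Whether any list differs from another was not tested.

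**Figure D5:**
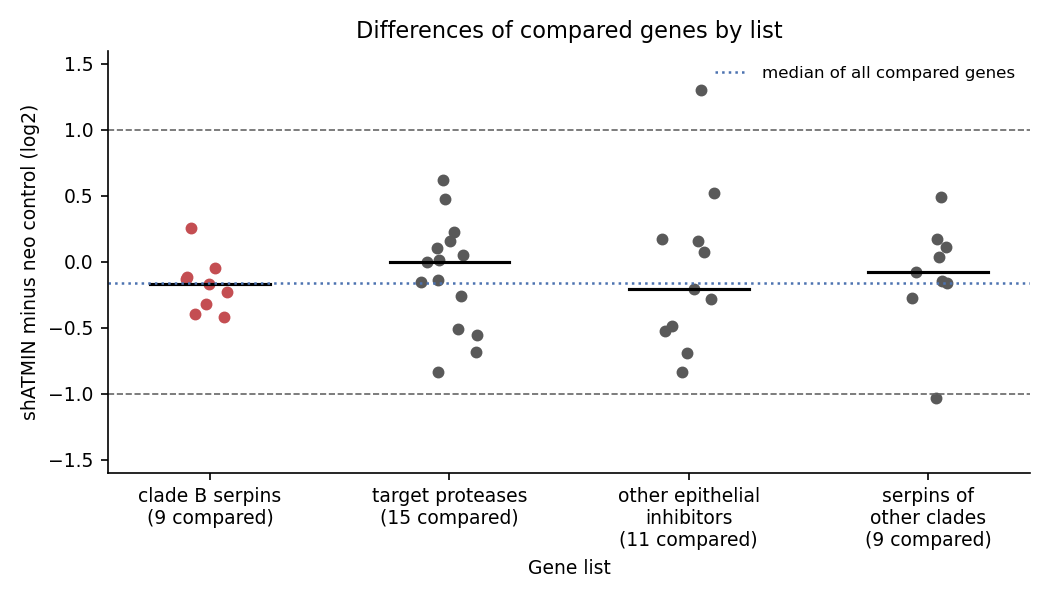
Difference between shATMIN and neo control (log2) of each compared gene in 4 lists, with the list median as a black bar and the median of all compared genes, -0.16, as a dotted line. Dashed lines mark 2-fold. The 9 clade B serpins span -0.42 to 0.26, and PI3 and SERPINA1 are the points past 2-fold in the other lists as deposited, of which SERPINA1 is within 2-fold at -0.89 with the trend on level removed.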

How the data were processed

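RNA of 1 neo control and 1 shATMIN sample was extracted with Trizol, amplified and labelled with Cy5, per the labels' protocols. The deposited values are linear intensities per probe, some below 0. The sources used here do not state the scanner, the background correction or any normalization. Probe names came from the platform annotation, updated through a RefSeq gene table (GRCh38.p14), used for names and gene order. Negative values were set to 0 before the transformation log2(intensity + 1), on which differences of dim genes are understated. A gene took the value of its brightest single-gene probe, by the mean of both samples, and was compared if this probe lay at or above the 40th percentile of the array. Differences are shATMIN minus neo control, counted by a rule of 2-fold. The trend on level was a loess fit with span 0.3. Unassigned columns numbered 0.

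Low deposited intensities are means of 2 whole-number readings with unequal factors, fitted by least squares as 1.0022 and 0.9978 for neo cells and 1.0019 and 0.9981 for shATMIN cells. Values under 1000 were split within a tolerance of 5e-05, and 54 and 56 compared genes could not be split. Members and lists were chosen with earlier results of these data known. Named were all members, SERPINB10 to SERPINB12, ATMIN, and up to 6 compared genes of each protease or inhibitor list by size of difference. Further targets, markers and neighbours were picked with their values in view. The calculation was tested on simulated data. The number of arrays limits the precision. Promoter windows are RefSeq's (GRCh38.p14), without the 50 bases after the start. Software was Python 3.11.15, NumPy 2.4.6, pandas 2.3.3, Biopython 1.88, statsmodels 0.14.6 and matplotlib 3.10.9.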

Additional observations from a re-analysis of the deposited data

How the results depend on the processing

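No paired analysis was possible because the groups have 1 sample each and share 1 replicate number. Alternatives covered 3 normalizations, the pseudocount, the dim filter, the way several probes are combined, probes naming several genes, and the 1.5-fold rule. Under each of them 0 compared members were past the rule in either direction. The median over members ran from -0.23, with the mean of each gene's compared probes, to 0.07, with scaling to the 75th percentile, and was 0.04 after quantile normalization. Each of the 72 values of single members under the alternatives moved from the value as reported by less than 0.34, the SD between probes of a gene, and 14 of the 72 had the other sign. Part of this stability was fixed in advance. The dim filters and the probes naming several genes left the single values unchanged, and the probe mean could alter only SERPINB2, SERPINB8 and SERPINB9. Scaling to the 75th percentile added 0.23, itself below 0.34. SERPINB2, SERPINB6 and SERPINB13 kept their sign in all 8 alternatives, and the mean of the SERPINB9 probes was -0.03. SERPINB4 was not compared with the filter at the 50th percentile, and SERPINB7 was compared only without a filter. The signal of SERPINB7, SERPINB10, SERPINB11 and SERPINB12 is too near background to show a difference.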

Other observations

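BCL2, the apoptosis regulator that lies near SERPINB5 beyond KDSR and VPS4B on chromosome 18, was singled out after its values were seen. One of its probes read 118 in neo cells, from readings of 114 and 122, and 5.5 in shATMIN cells, from readings of 3.0 and 8.0. Its other probe read 7.5 and 6.0, near background in both. Neither probe reached the 40th percentile by its mean, so BCL2 was not among the compared genes, and the cause of the difference was not tested.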
